A study of Mus musculus with 16 samples.

Results

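The genes of glycolysis and of the pentose phosphate pathway, with the lactate and pyruvate genes beside them, were followed in brain macrophages of bone marrow chimeras. The group holds 34 genes, chosen by symbol from the 24411 rows of the deposited table of exon read counts, and all 34 were found. Recipients were WT C57BL/6J mice that had been irradiated with 950 cGy at 6 weeks of age and given congenic WT bone marrow with the CD45.1 allele. The chimeras of both experiments, with and without LPS, were killed 9 months after transplantation, although the sample labels allow 3.5 or 9 months and assign neither to a library. In all, 4 groups of 4 libraries were compared. Engrafted cells (CD45.1 low) and host microglia (CD45.2 low) were sorted as CD11b+ cells negative for Ly6C/G, 10000 per library, from each of 8 brains. Mice 1 to 4 had received LPS, a bacterial endotoxin, at 2.5 mg/kg into the body 12 h earlier, and mice 5 to 8 had not. All host microglia, controls included, come from irradiated brains, and all engrafted cells are bone marrow progeny that entered an irradiated brain, so that origin and irradiation cannot be told apart here.

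Glycolysis splits glucose into pyruvate and yields ATP without oxygen. Glucose enters through transporters, is trapped by hexokinase as glucose 6-phosphate, passes the committed step at phosphofructokinase, and leaves the pathway as pyruvate, which goes to the mitochondria or becomes lactate that is exported with a proton. The pentose phosphate pathway branches off at glucose 6-phosphate and makes NADPH and ribose 5-phosphate. Macrophages stimulated with LPS are known for a shift toward glycolysis with lactate export, and NADPH feeds both their oxidant burst and their antioxidant defence.

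Between 395283 and 1203597 reads were counted on genes per library (median 820587.5), and the engrafted library of LPS mouse 4 was the shallowest. Values are given as CPM, read counts scaled by TMM to a common library size. A gene with 3 reads or fewer was taken as at the limit of detection, which was 2.34 to 8.73 CPM depending on the library and covers counting error only. A list of 8 brain macrophage genes, among them Itgam, which encodes the CD11b of the gate, summed to 31790 to 53949 CPM over the 16 libraries. The gate did not select for a further list of 8 microglia genes. It summed to 20775 to 23237 CPM in host control and 8148 to 9970 CPM in engrafted control libraries. With LPS it summed to 10296 to 12796 CPM in host and 3323 to 4485 CPM in engrafted libraries. The paper reports several of these genes as reduced in engrafted cells. Marker genes of other cells differed between the populations. The 8 monocyte genes in the table summed to 424 to 519 CPM in engrafted control and 1441 to 2737 CPM in engrafted LPS libraries, against at most 159 CPM in any host library, and the 10 neutrophil genes to 48.0 to 1272 CPM in engrafted against at most 14.6 CPM in host libraries, with Ly6g, the neutrophil surface marker, at 0 to 3 reads per group. The 8 astrocyte genes ran the other way, at 144 to 294 CPM in host and 14.6 to 52.2 CPM in engrafted libraries, carried by Slc1a3, while Gfap had 0 or 1 read per group. The 8 neuron genes summed to 193 CPM in the host control library of mouse 5, where the median of host control libraries was 17.2 CPM. They reached at most 66.1 CPM in engrafted control and 27.6 CPM in LPS libraries. Red blood cell genes, a list of 7 with the globins, summed to 6860 CPM in the engrafted library of LPS mouse 4 and 4867 CPM in that of control mouse 8, against 757 and 884 CPM in the host libraries of mice 8 and 4 and at most 165 CPM in the other 12 libraries. The engrafted library of LPS mouse 4 also stood apart in its expression as a whole, with a correlation of 0.860 to 0.865 (log2 CPM) to its replicates, against 0.940 to 0.953 among the other 3. Monocyte, neutrophil and astrocyte lists move with every comparison of the 2 populations below, and their part in the results was not tested. In sorted bulk RNA, fewer cells of a type and less RNA per cell cannot be told apart.

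The 34 genes together took 0.260 to 0.278% of the reads in engrafted control libraries and 0.353 to 0.382% in host control libraries. After LPS the share was 0.507 to 0.577% in host and 0.528 to 0.617% in engrafted libraries. Without LPS the engrafted cells therefore had the smaller share and the 2 populations did not overlap, whereas after LPS the shares overlapped and both lay above all control libraries. On the TMM scale used below the LPS groups did not overlap, since the members summed to 5645 to 6509 CPM in engrafted and 4795 to 5400 CPM in host LPS libraries, with the engrafted library above the host library in 4 of 4 mice.

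Without LPS, 25 members had enough reads for the quasi-likelihood test of edgeR, whose p-values were adjusted over all 8042 genes tested (Benjamini-Hochberg). Of these, 3 were higher in engrafted cells and 8 lower, against 13.6 and 13.7% of all genes tested, and the median log2 fold change was -0.21 against 0.02 over all genes. After LPS the balance was the other way. Of 29 members tested, 8 were higher in engrafted cells and 2 lower, against a background of 9.52 and 7.62%, with a median of 0.34 against -0.01. One of the 8, Pfkp, entered this test only through the engrafted libraries.

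The LPS challenge moved most members. In engrafted cells 18 of 27 tested members rose and 5 fell, where 19.4% of all genes tested rose and 19.3% fell, and their median log2 fold change was 0.85 against -0.01. In host microglia 12 of 28 rose and 4 fell, where the background was 19.2 and 20.5%, and the median was 0.43 against 0.01. Pfkp and Eno1 among the 18, and Slc2a3 among the 12, entered these tests only through the LPS libraries. The change with LPS was itself tested between the populations with an interaction term over all 16 libraries. Of 29 members, 7 rose more, or fell less, in engrafted cells and 0 the reverse, while over 8847 genes 2.97% differed in the one direction and 2.90% in the other. All 7 were also over 2-fold, as were 4.95% of all genes tested in either direction. DESeq2 called 8 members in the first direction and 0 in the other at an adjusted p below 0.05, against 402 and 286 of all 9857 genes it tested. The largest difference in the other direction among the members, that of Slc2a3 (-1.41), was not called by edgeR (adjusted p = 0.0912). These comparisons share libraries (the engrafted control libraries stand in 3 of them), so their counts are not independent of each other.

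**Figure D1:**
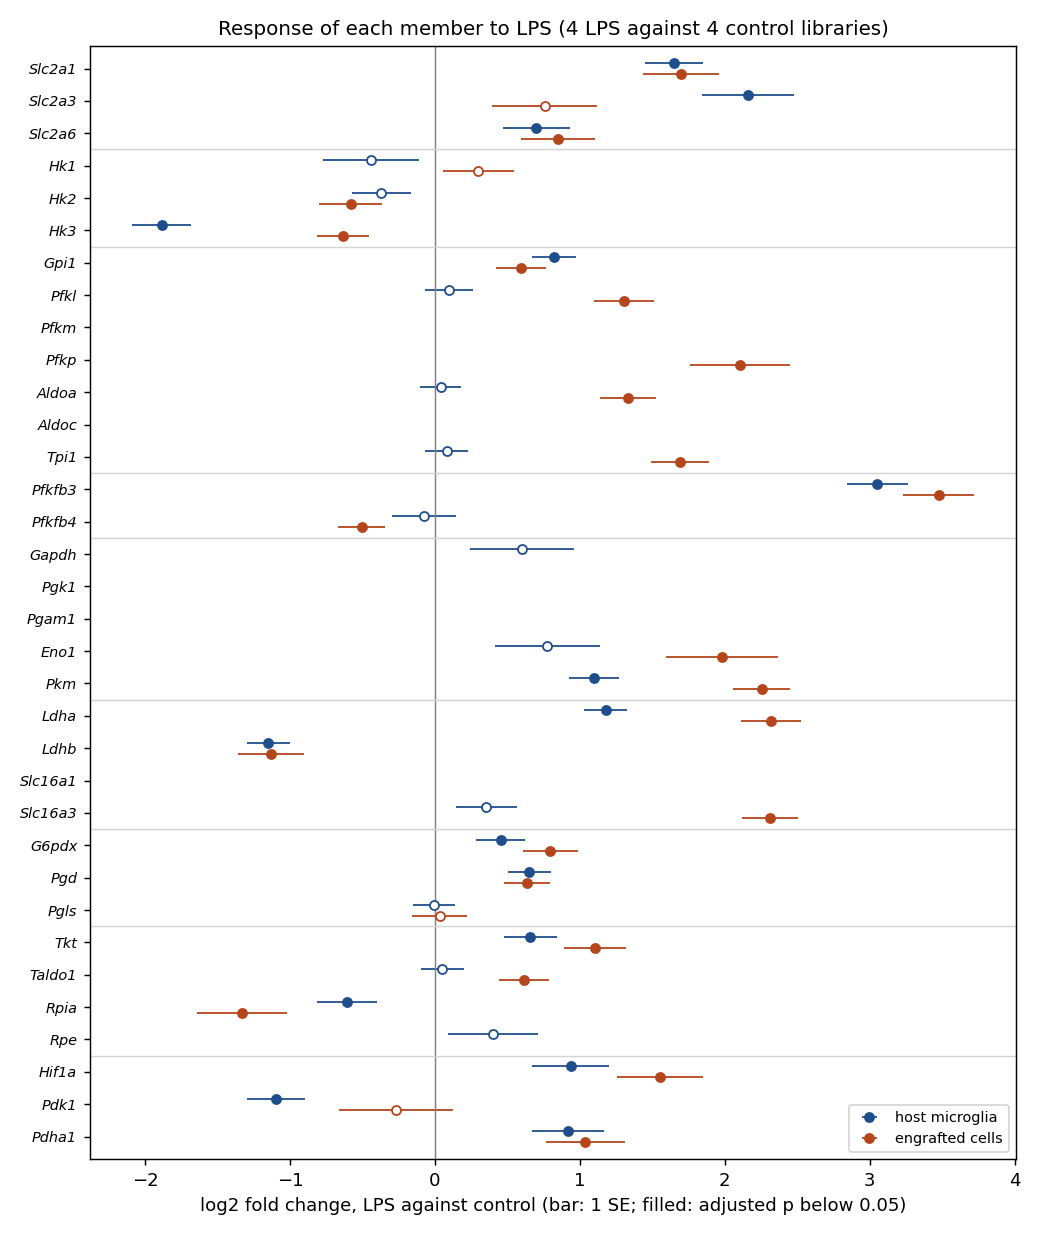
Log2 fold change of each member after LPS against control in host microglia (blue) and engrafted cells (red), 4 against 4 libraries, with bars of 1 standard error. Filled points passed adjusted p 0.05. Tpi1, Aldoa, Pfkl, Pkm, Ldha and Slc16a3 have their red point far to the right of the blue one, and members with no point had too few reads.

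Of the glucose transporters, Slc2a1 (GLUT1, the widely expressed importer) had 31.1, 26.0, 31.2 and 43.3 CPM in host control libraries and 84.7, 102, 125 and 105 CPM after LPS. In engrafted cells it had 27.6, 41.7, 26.8 and 18.5 CPM without and 88.9, 109, 61.5 and 122 CPM with LPS. Every LPS library lay above every control library of its population, and the rise was 1.65 ± 0.20 (log2 ± SE, adjusted p = 8.90e-07) in host and 1.70 ± 0.26 (adjusted p = 3.74e-05) in engrafted cells. Slc2a3 (GLUT3, the high-affinity importer) rose in host microglia by 2.16 ± 0.32 (adjusted p = 1.04e-05), from 4.45, 5.77, 7.01 and 7.06 to 27.1, 26.3, 39.2 and 20.9 CPM. Slc2a3 had enough reads for this test through the LPS libraries alone, so the rise is a description only. Its engrafted libraries had 15.4, 12.2, 16.8 and 11.1 CPM without and 14.3, 18.0, 32.0 and 37.8 CPM with LPS, with an adjusted p of 0.107 (0.0480 without engrafted LPS mouse 1). The difference between the 2 responses was not called either (-1.41 ± 0.49, adjusted p = 0.0912), except without the engrafted library of LPS mouse 4 (-1.58, adjusted p = 0.0471). Without LPS every engrafted library was above every host library, but Slc2a3 had too few reads for the test of these 2 groups. With all 16 libraries in 1 fit, that difference was 1.15 ± 0.40 (adjusted p = 0.0369).

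Slc2a6 (GLUT6, a transporter found on intracellular membranes) was higher in engrafted cells both without and with LPS. Host control libraries had 20.8, 20.2, 28.8 and 17.1 CPM and engrafted control libraries 53.2, 69.5, 102 and 77.9 CPM. With LPS the values were 37.3, 41.8, 32.1 and 32.1 CPM in host and 103, 202, 141 and 78.6 CPM in engrafted cells. Engrafted libraries were above host libraries in every case, by 1.75 ± 0.23 without (adjusted p = 1.52e-06) and 1.90 ± 0.26 with LPS (adjusted p = 3.19e-05). LPS raised it by 0.70 ± 0.23 in host (adjusted p = 0.0190) and 0.85 ± 0.25 in engrafted cells (adjusted p = 0.0122), and both rises were lost when single libraries were left out. Those libraries were engrafted LPS mouse 2 or engrafted control mouse 5 (adjusted p = 0.0677 to 0.0715), and host LPS mouse 2 or host control mouse 6 or 8 (adjusted p = 0.0550 to 0.0612). The host rise was also lost with DESeq2 (adjusted p = 0.0652) and with all 16 libraries in 1 fit (adjusted p = 0.0538).

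None of the 3 hexokinases rose after LPS. Hk3, the hexokinase of myeloid cells, had 154, 197, 175 and 222 CPM in host control and 172, 167, 181 and 176 CPM in engrafted control libraries. After LPS it stood at 29.4, 45.7, 66.5 and 64.2 CPM in host and 119.6, 88.9, 104 and 143 CPM in engrafted cells. The fall was -1.89 ± 0.21 in host microglia (adjusted p = 2.13e-07) and -0.63 ± 0.18 in engrafted cells (adjusted p = 0.00814), a difference of 1.24 ± 0.28 between the populations (adjusted p = 0.00631). Hk3 was not called between the populations without LPS (-0.10 ± 0.14, adjusted p = 0.647), and was higher in engrafted cells afterwards by 1.14 ± 0.25 (adjusted p = 0.00284). Hk2, the inducible hexokinase bound to mitochondria, ranged from 145 to 217 CPM over all control libraries, and fell in engrafted cells to 103, 138, 120.4 and 49.5 CPM (-0.58 ± 0.22, adjusted p = 0.0410). That call rested on every library but engrafted LPS mice 2 and 3, since leaving out any of the others gave an adjusted p of 0.0565 to 0.101, and the change was -0.39 without engrafted LPS mouse 4. DESeq2 did not call this fall (adjusted p = 0.0925). Host LPS libraries had 160, 81.7, 196 and 142 CPM of Hk2 (-0.37 ± 0.20, adjusted p = 0.157). The 2 responses of Hk2 were not shown to differ (-0.22 ± 0.32, adjusted p = 0.773). Hk1, the constitutive form, was at 43.9, 42.0, 42.3 and 49.5 CPM in engrafted LPS libraries, above the 15.8, 9.73, 26.1 and 26.5 CPM of host LPS libraries (1.21 ± 0.29, adjusted p = 0.00769), while LPS itself moved it by 0.30 ± 0.24 in engrafted and -0.44 ± 0.33 in host cells, neither past the threshold.

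In upper glycolysis the 2 populations parted. Tpi1, triosephosphate isomerase, which interconverts the triose phosphates, had 125, 104, 121 and 118 CPM in host control libraries and 119, 125, 137 and 115 CPM in host LPS libraries. Engrafted cells went from 83.9, 97.4, 117 and 104 to 336, 295, 245 and 425 CPM. The lowest engrafted LPS library was thus above every library of the other 3 groups. The response was 1.69 ± 0.20 in engrafted cells (adjusted p = 1.46e-06) and 0.08 ± 0.15 in host microglia (adjusted p = 0.699), and the difference of 1.60 ± 0.25 was the interaction with the smallest adjusted p among the members (0.000132). The highest value came from the engrafted library of LPS mouse 4, without which the rise was 1.57 and the difference 1.46 (adjusted p = 9.16e-05).

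Aldoa, aldolase A, which cleaves fructose 1,6-bisphosphate, followed the same course. It had 334, 342, 291 and 377 CPM in host control and 304, 368, 380.1 and 337 CPM in host LPS libraries. The engrafted values were 232, 205, 186 and 195 CPM without and 492, 515, 399.6 and 666 CPM with LPS. Engrafted libraries were all below host libraries before (-0.70 ± 0.13, adjusted p = 0.000234) and all above them after LPS, where the difference of 0.58 ± 0.20 missed the threshold (adjusted p = 0.0536) and passed it with the mouse as a replicate block (0.57 ± 0.18, adjusted p = 0.0360). LPS raised Aldoa by 1.33 ± 0.19 in engrafted cells (adjusted p = 1.57e-05) against 0.04 ± 0.14 in host microglia (adjusted p = 0.844), a difference of 1.28 ± 0.24 (adjusted p = 0.00106). Here too LPS mouse 4 gave the highest engrafted value, and without that library the rise was 1.21 and the difference 1.15 (adjusted p = 0.000534).

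Phosphofructokinase, the committed step, is built from the subunits Pfkl (liver), Pfkm (muscle) and Pfkp (platelet). Pfkl had 80.0, 101, 95.8 and 91.7 CPM in host control and 81.3, 97.3, 113 and 108 CPM in host LPS libraries, so the host groups overlapped. In engrafted cells it went from 52.2, 57.4, 55.3 and 79.7 to 122, 125, 192 and 163 CPM, from below all host libraries to above them. The rise was 1.31 ± 0.21 (adjusted p = 4.99e-05) and the difference from the host response 1.20 ± 0.26 (adjusted p = 0.00428). Against host microglia Pfkl was lower without LPS by -0.61 ± 0.17 (adjusted p = 0.00640) and higher after it by 0.60 ± 0.20 (adjusted p = 0.0456). The latter call was lost without engrafted LPS mouse 3 or any 1 of the host LPS mice (adjusted p = 0.0636 to 0.159), and with library totals in place of TMM (0.45, adjusted p = 0.146). It was also lost with DESeq2 (adjusted p = 0.0530), without the filter on low counts (adjusted p = 0.0534) and with at least 10 reads in every library (adjusted p = 0.0710).

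Pfkp was seen almost only in engrafted cells. All host control libraries were at 1 to 3 reads, the limit of detection, and host LPS libraries had 4, 4, 1 and 2 reads. Engrafted libraries had 12.3, 13.9, 5.03 and 7.42 CPM without and 57.1, 46.8, 34.6 and 29.1 CPM with LPS, a rise of 2.11 ± 0.34 (adjusted p = 6.84e-05). Pfkp entered the test of this rise through the LPS libraries alone, so the rise is a description only. After LPS the engrafted libraries had 128 reads in all and the host libraries 11, and the fitted difference of 3.72 is a description only, since Pfkp passed the filter on low counts through the engrafted LPS libraries alone. Its difference in response could not be told from 0 (1.65 ± 0.77, adjusted p = 0.233). Pfkm had at most 10 reads in any library and was not tested. Gpi1, which turns glucose 6-phosphate into fructose 6-phosphate, was 0.59 ± 0.14 higher in engrafted cells without LPS (adjusted p = 0.00223) and rose in both, by 0.59 ± 0.17 in engrafted (adjusted p = 0.0105) and 0.82 ± 0.15 in host cells (adjusted p = 0.000152). Aldoc, the brain aldolase, had 0 to 29 reads and was not tested. Its 29 reads were in the host control library of mouse 5, which also had the highest sum of neuron genes.

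**Figure D2:**
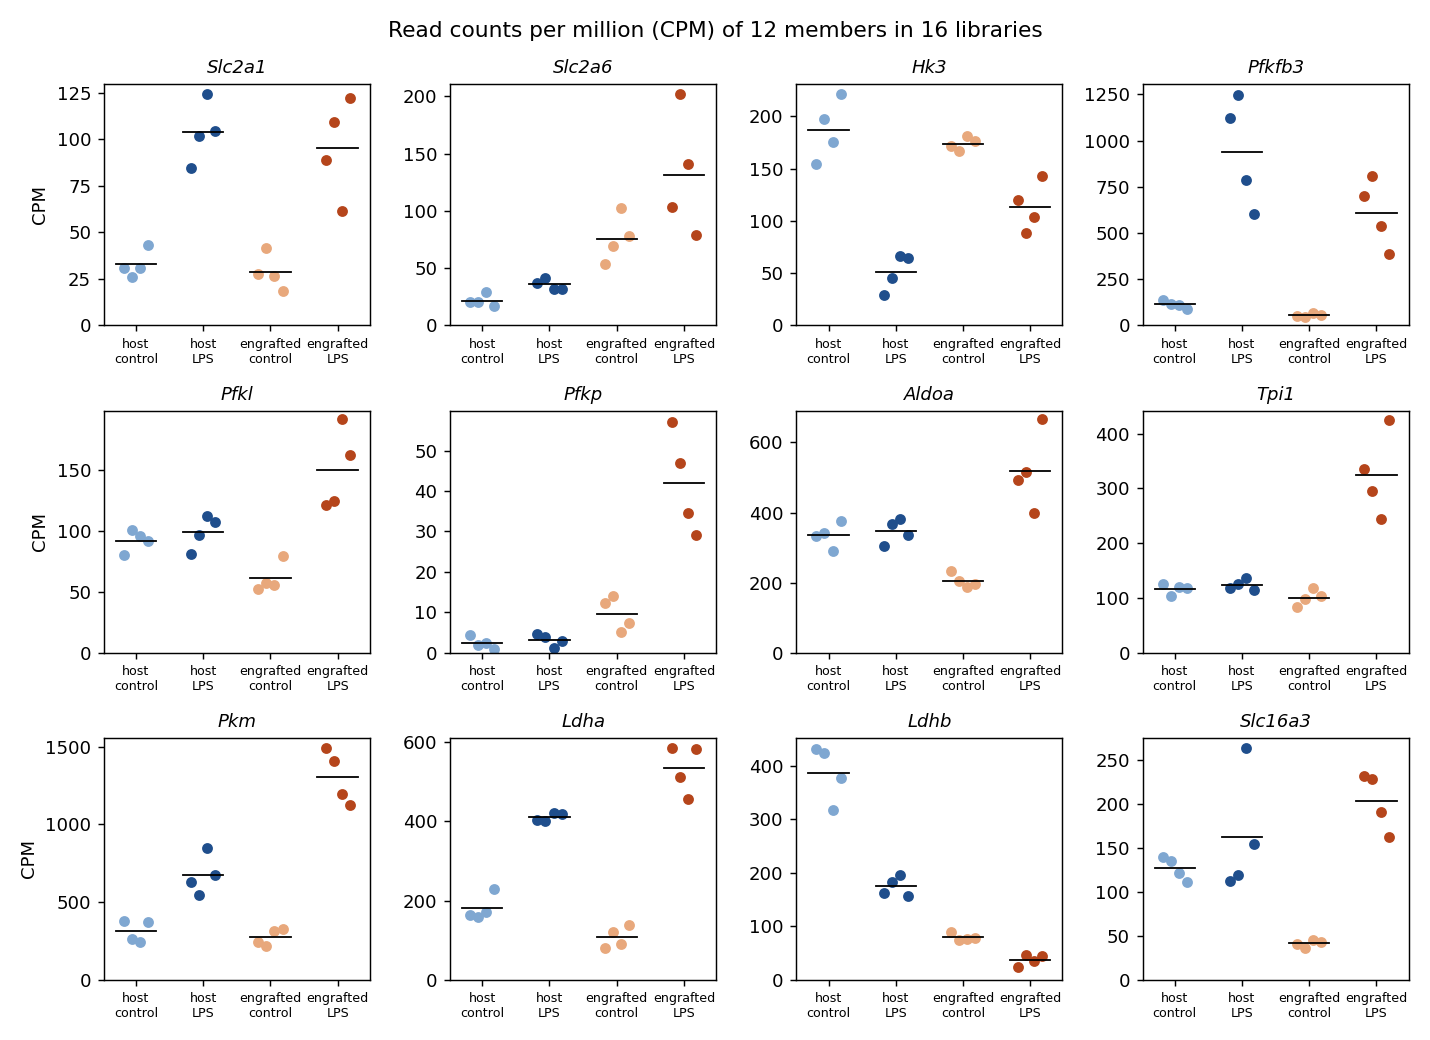
CPM of 12 members in each of the 16 libraries, by population and treatment, with a line at the mean of 4 libraries. Tpi1, Aldoa, Pfkl and Pfkp stand highest in engrafted LPS libraries, Hk3 is lowest in host LPS libraries at 29.4 to 66.5 CPM, and Ldhb falls from 317 to 431 CPM in host control to 23.0 to 46.8 CPM in engrafted LPS libraries.

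The enzymes that set fructose 2,6-bisphosphate, the activator of phosphofructokinase, gave the steepest rise of all members. Pfkfb3, whose kinase activity dominates and which therefore favours glycolysis, had 139, 114, 111 and 90.7 CPM in host control and 50.2, 46.9, 67.0 and 55.6 CPM in engrafted control libraries. After LPS it reached 1123, 1248, 786 and 605 CPM in host and 702, 806, 535 and 387 CPM in engrafted cells, in both populations with mice 1 and 2 above mice 3 and 4. LPS raised it by 3.05 ± 0.21 in host (adjusted p = 2.82e-10) and by 3.48 ± 0.24 in engrafted cells (adjusted p = 1.14e-09), and the responses were not shown to differ (0.42 ± 0.33, adjusted p = 0.533). Engrafted cells had less of it without LPS (-1.04 ± 0.17, adjusted p = 2.85e-05). After LPS the difference was -0.62 ± 0.26 (adjusted p = 0.119), and -0.62 ± 0.17 with the mouse as a replicate block (adjusted p = 0.0110).

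Pfkfb4, another isozyme of the family, was higher in engrafted cells without LPS. It had 129, 117, 138 and 171 CPM in host control and 233, 219, 204 and 204 CPM in engrafted control libraries (0.64 ± 0.14, adjusted p = 0.00113). In engrafted cells LPS brought it down to 134, 166, 151 and 157 CPM (-0.50 ± 0.16, adjusted p = 0.0182), a call that was lost without engrafted LPS mouse 1 (adjusted p = 0.0763) or engrafted control mouse 6 (adjusted p = 0.0522). That call was also lost without the filter on low counts (adjusted p = 0.0950) and with all 16 libraries in 1 fit (adjusted p = 0.0569). Host LPS libraries spread from 75.9 to 202 CPM and were not called (-0.08 ± 0.22, adjusted p = 0.812). The responses of Pfkfb4 were not shown to differ between the populations (-0.44 ± 0.30, adjusted p = 0.450). The ratio of Pfkfb3 to Pfkfb4 reads was 0.531 to 1.08 in host control and 0.217 to 0.331 in engrafted control libraries, and 2.98 to 16.4 in host LPS and 2.45 to 5.23 in engrafted LPS libraries. Control libraries of the populations did not overlap in this ratio. LPS libraries did, but within each of the 4 LPS mice the host ratio was the higher, at 10.8, 16.4, 5.08 and 2.98 against 5.23, 4.85, 3.53 and 2.45 in the engrafted cells of mice 1 to 4.

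Lower glycolysis turns triose phosphates into pyruvate. Pkm, pyruvate kinase, which makes pyruvate and ATP, had 375, 265, 246 and 372 CPM in host control and 241, 216, 317 and 324 CPM in engrafted control libraries, and the groups overlapped. After LPS it had 629.9, 544, 851 and 676 CPM in host and 1491, 1405, 1198 and 1123 CPM in engrafted cells. The rise was 1.10 ± 0.17 in host (adjusted p = 2.59e-05) and 2.26 ± 0.20 in engrafted cells (adjusted p = 2.42e-08), with a difference of 1.15 ± 0.26 (adjusted p = 0.00756). After LPS every engrafted library was above every host library (0.96 ± 0.20, adjusted p = 0.00179). Reads were counted per gene, so the M1 and M2 splice forms of pyruvate kinase were not separated.

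The other members of lower glycolysis were nearly absent from the counts. Over all 16 libraries Gapdh had 145 reads, Pgk1 32, Pgam1 64 and Eno1 266, against 8103 for Pkm. These 4 enzymes carry the steps from glyceraldehyde 3-phosphate to phosphoenolpyruvate. Only uniquely mapped reads were counted, at the 3′ end of the RNA, so the last 300 exonic bases of each member were compared with the whole NCBIM37 genome in windows of 50 bases. All windows of Gapdh and Pgk1, 98.4% of those of Pgam1 and 88.8% of those of Eno1 had an exact copy elsewhere, those of Gapdh at 154 places. For Ldhb the share was 30.3%, for Ldha 26.7%, for Pkm 21.5% and for Aldoa 9.96%. The gene model used for Gpi1 (37.9%) ended 795 bases from that of the count table. All other members were at or below 3.59%. The read length is not given in the sources used here, and the part of these copies in the low counts was not tested. Aldoc, Pfkm and Slc16a1, which had no copy, also had only 68 to 103 reads.

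**Figure D3:**
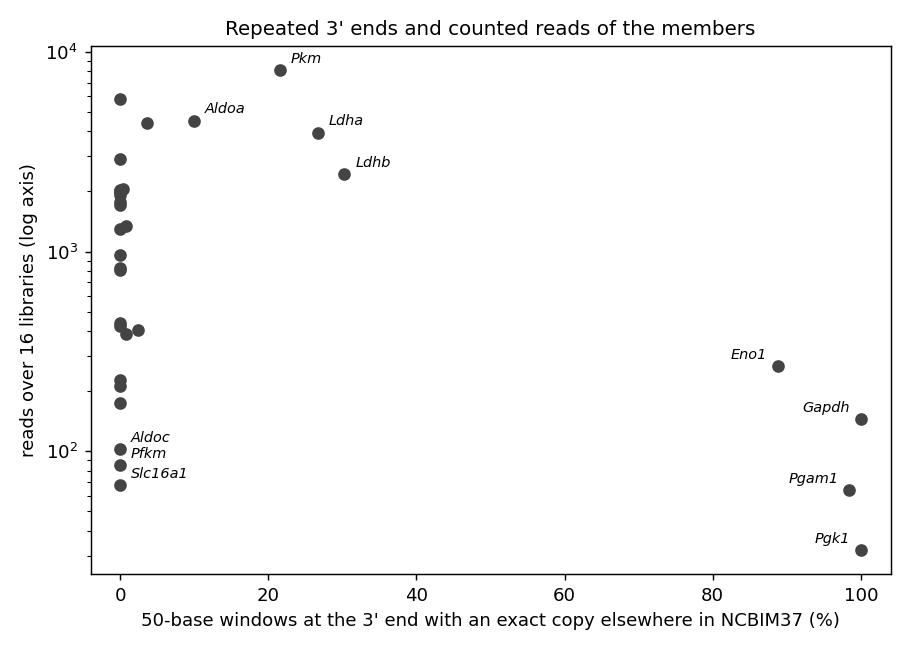
Reads summed over 16 libraries (log axis) against the percentage of 50-base windows in the last 300 exonic bases that have an exact copy elsewhere in the genome, for 33 members whose gene model ends within 150 bases of that in the count table. Gapdh, Pgk1, Pgam1 and Eno1 lie at 88.8 to 100% with 32 to 266 reads, and no other member is above 30.3%.

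Among these, Eno1, the enolase that makes phosphoenolpyruvate, was counted at 4.45, 9.62, 10.9 and 19.2 CPM in host control and 7.17, 13.9, 18.4 and 3.71 CPM in engrafted control libraries. With LPS it had 26.0, 10.7, 24.9 and 18.2 CPM in host and 48.3, 57.7, 28.2 and 29.1 CPM in engrafted cells. The rise in engrafted cells was 1.98 ± 0.39 (adjusted p = 0.000395) and that in host cells 0.77 ± 0.36 (adjusted p = 0.0936, and 0.0234 or 0.0284 without host LPS mouse 2 or host control mouse 8). In engrafted cells Eno1 had enough reads for this test through the LPS libraries alone, so the rise there is a description only. These responses were not shown to differ (1.21 ± 0.57, adjusted p = 0.242). After LPS the engrafted libraries were 1.10 ± 0.32 above the host libraries (adjusted p = 0.0220), but not past the threshold without engrafted LPS mouse 1 or 2 or host LPS mouse 2 (adjusted p = 0.0690 to 0.102). With library totals in place of TMM this difference was not called either (adjusted p = 0.0519). Gapdh, which makes NADH in the first of these steps, had 2 to 25 reads per library and was called in none of the 3 comparisons in which it passed the filter on low counts. Pgk1, an ATP-making kinase, had 0 to 5 reads and Pgam1, a mutase, 0 to 16, and neither passed that filter. Without it, all 3 were called higher after LPS in engrafted cells, Gapdh with an adjusted p of 0.0402, Pgk1 of 0.0326 and Pgam1 of 0.00515 (0.0298 with DESeq2). These calls rest on 14, 2 and 5 reads in the 4 engrafted control libraries together, against 37, 17 and 31 with LPS.

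The lactate step separated the populations with and without LPS. Lactate dehydrogenase is a tetramer of A subunits, the form that favours lactate formation, and B subunits, the form of oxidative tissue. Ldhb had 431, 423, 317 and 377 CPM in host control but 89.1, 74.8, 77.1 and 77.9 CPM in engrafted control libraries. After LPS it stood at 163, 183, 196 and 156 CPM in host and 23.0, 46.8, 35.9 and 43.7 CPM in engrafted cells. The populations did not overlap with or without LPS, and the engrafted level was lower by -2.26 ± 0.15 (adjusted p = 7.06e-12) and -2.24 ± 0.22 (adjusted p = 6.63e-07). LPS lowered Ldhb by -1.15 ± 0.15 in host (adjusted p = 2.42e-06) and by -1.13 ± 0.23 in engrafted cells (adjusted p = 0.000614), with a difference of 0.01 ± 0.34 between these responses.

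Ldha went up instead. It had 163, 159, 171 and 229 CPM in host control and 80.9, 122, 90.5 and 139 CPM in engrafted control libraries, and 404, 399.8, 422 and 418 CPM in host LPS and 585, 511, 457 and 582 CPM in engrafted LPS libraries. Engrafted cells were lower without LPS by -0.76 ± 0.17 (adjusted p = 0.00115). LPS raised Ldha by 1.18 ± 0.15 in host (adjusted p = 1.65e-06) and 2.32 ± 0.21 in engrafted cells (adjusted p = 3.36e-08), and the responses differed by 1.13 ± 0.25 (adjusted p = 0.00621). After LPS the 4 engrafted libraries were above the 4 host libraries, but the difference of 0.38 ± 0.18 was not called (adjusted p = 0.167), except by DESeq2 (0.39, adjusted p = 0.0483). With these opposite changes, the ratio of Ldha to Ldhb reads was 0.379, 0.376, 0.539 and 0.607 in host control, 0.909, 1.62, 1.17 and 1.78 in engrafted control, 2.48, 2.18, 2.15 and 2.66 in host LPS and 24.8, 10.8, 12.5 and 12.9 in engrafted LPS libraries. None of the 4 groups overlapped another in this ratio.

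**Figure D4:**
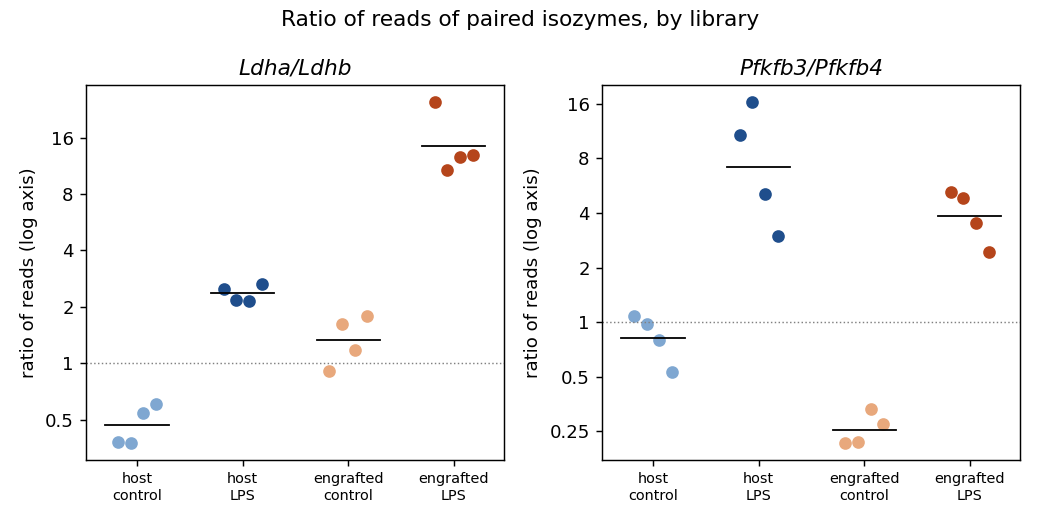
Ratio of Ldha to Ldhb reads and of Pfkfb3 to Pfkfb4 reads in each library (log axes), with a line at the geometric mean of 4 libraries and a dotted line at 1. The Ldha to Ldhb ratio separates all 4 groups, from 0.376 in a host control to 24.8 in an engrafted LPS library, while the Pfkfb3 to Pfkfb4 ratio overlaps between the LPS groups, although it is higher in the host than in the engrafted library of each of the 4 LPS mice.

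Slc16a3 (MCT4), the transporter that exports lactate with a proton, had the largest interaction of the members called. Host control libraries had 139, 136, 122 and 111 CPM and host LPS libraries 113, 119.6, 264 and 155 CPM, which overlap. Engrafted cells had 41.0, 36.5, 45.25 and 42.6 CPM without and 232, 228, 191 and 163 CPM with LPS. Without LPS it was -1.60 ± 0.16 lower in engrafted cells (adjusted p = 1.23e-08), and after LPS the populations were not told apart (0.34 ± 0.25, adjusted p = 0.412). The rise of 2.31 ± 0.19 in engrafted cells (adjusted p = 1.27e-08) stood against 0.35 ± 0.21 in host microglia (adjusted p = 0.194), and the difference was 1.95 ± 0.31 (adjusted p = 0.000171). Slc16a1 (MCT1), the other lactate carrier in the group, had 0 to 9 reads per library and was not tested, with 3 of the 4 engrafted control libraries at 0.

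**Figure D5:**
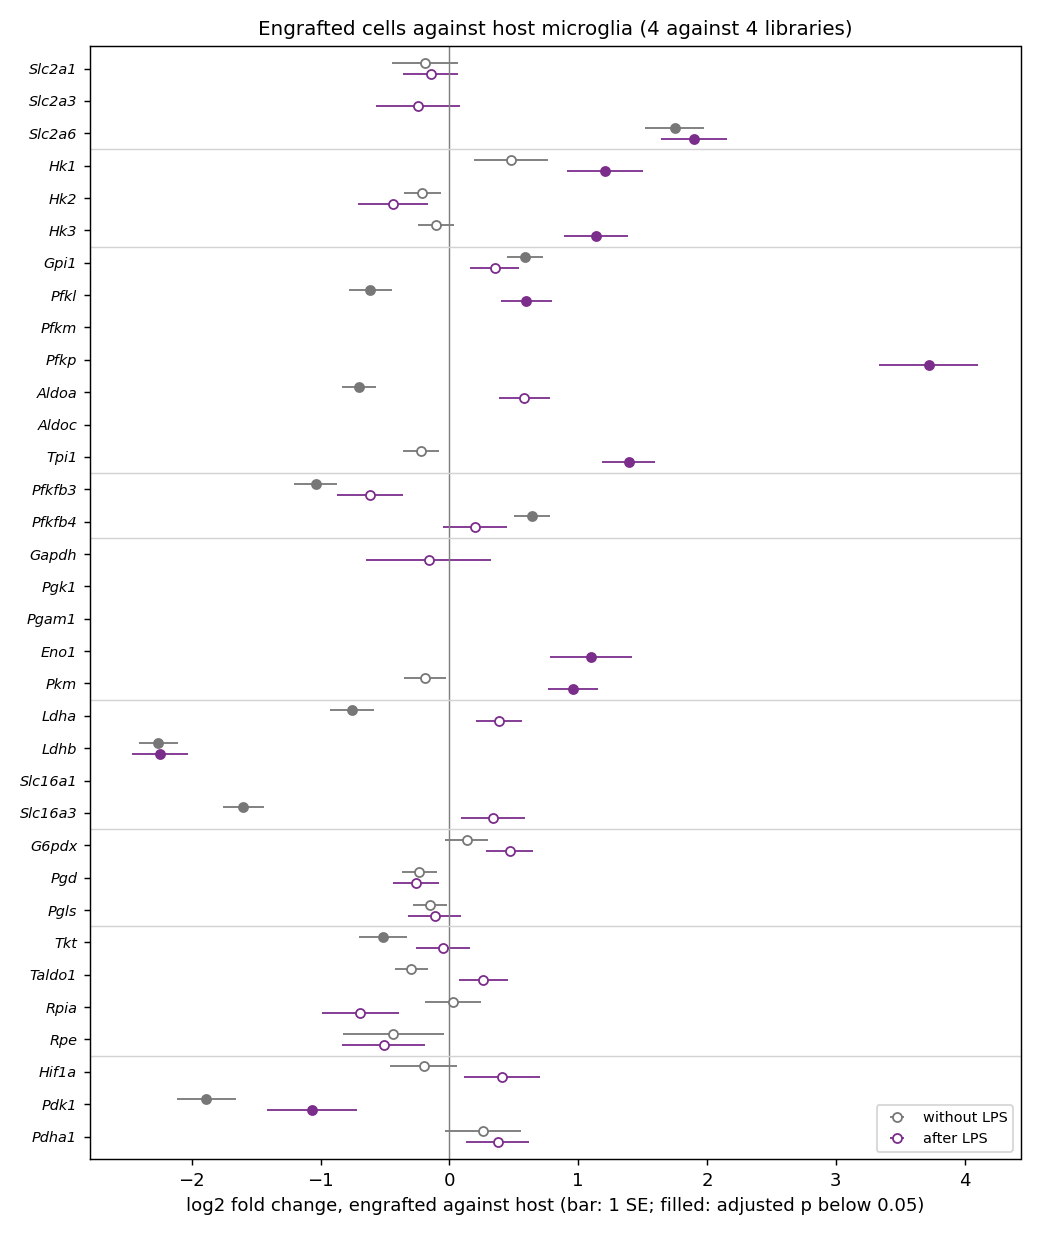
Log2 fold change of each member in engrafted cells against host microglia, without LPS (grey) and after LPS (purple), 4 against 4 libraries, with bars of 1 standard error. Filled points passed adjusted p 0.05. Ldhb is lower at both times by more than 2 log2 units, while Tpi1, Pkm, Hk1, Hk3 and Pfkl are higher after LPS only by this test, and the point of Pfkp, at 3.72, rests on 11 reads in the host LPS libraries.

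The 7 members whose LPS response differed between the populations were Slc16a3, Tpi1, Aldoa, Hk3, Pfkl, Pkm and Ldha, with differences of 1.13 to 1.95 on the log2 scale. In the deposited table (mm9) they lie on 6 chromosomes, with Slc16a3 at chr11:120810381-120820314, Tpi1 at chr6:124760610-124764314, Aldoa at chr7:133938748-133942692, Hk3 at chr13:55107346-55122746, Pfkl at chr10:77449694-77472541, Pkm at chr9:59504175-59527182 and Ldha at chr7:54101174-54110997. All 7 remained called when any 1 of the 16 libraries was left out. Of the 7, 4 were lower in engrafted than in host cells without LPS (Slc16a3, Aldoa, Pfkl and Ldha), and Tpi1, Pkm and Hk3 were not called there. Engrafted LPS libraries were also those with the highest monocyte list, 1441 to 2737 CPM with 8 of 8 genes detected, of which Ly6c2, a marker of inflammatory monocytes, gave 428 to 858 CPM. The gate left out cells with Ly6C/G protein, and the part of these genes in the 7 differences was not tested.

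The promoters of 4 of these lactate and triose genes are shown because Slc16a3, Ldha and Tpi1 rose together in engrafted cells while Ldhb fell. They were taken from RefSeq on GRCm38.p6 (250 bases before to 50 after the outermost start), a later build than that of the counts. In capitals are the letters ACGTG or, for the other strand, CACGT, a form of the core that the hypoxia-inducible factor HIF-1 binds. Where both overlap as CACGTG, each was counted. The form GCGTG, which the printed Ldha and Ldhb sequences hold, was not searched. Slc16a3 (chr11:120948817-120949116, + strand) held 2 matches, Ldha (chr7:46845554-46845853, + strand) 5, of which 4 lie in 2 copies of CACGTG, and Tpi1 (chr6:124814109-124814408, - strand) and Ldhb (chr6:142507908-142508207, - strand) 0. Ldha has another promoter in the table (chr7:46846832-46847131, + strand), which held 0. Of the other members whose LPS response differed between the populations, Hk3 held 1 match and Pfkl 0. Aldoa held 0 at its outermost start and 1 at each other start, and Pkm 0 at its outermost start and 2 at the other. Any relation of the matches to the responses was not tested.
Slc16a3: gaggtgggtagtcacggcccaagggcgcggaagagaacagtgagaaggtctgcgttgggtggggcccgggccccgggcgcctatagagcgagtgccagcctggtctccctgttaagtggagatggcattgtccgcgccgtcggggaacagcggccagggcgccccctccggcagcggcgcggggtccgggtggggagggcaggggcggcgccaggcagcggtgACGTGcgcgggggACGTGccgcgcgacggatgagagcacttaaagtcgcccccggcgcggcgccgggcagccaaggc
Ldha: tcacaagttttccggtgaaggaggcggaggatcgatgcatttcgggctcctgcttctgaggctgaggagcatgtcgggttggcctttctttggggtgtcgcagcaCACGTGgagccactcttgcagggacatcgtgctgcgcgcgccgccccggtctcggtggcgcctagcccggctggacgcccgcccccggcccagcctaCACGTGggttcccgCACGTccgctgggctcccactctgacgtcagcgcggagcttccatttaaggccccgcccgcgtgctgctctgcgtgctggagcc
Tpi1: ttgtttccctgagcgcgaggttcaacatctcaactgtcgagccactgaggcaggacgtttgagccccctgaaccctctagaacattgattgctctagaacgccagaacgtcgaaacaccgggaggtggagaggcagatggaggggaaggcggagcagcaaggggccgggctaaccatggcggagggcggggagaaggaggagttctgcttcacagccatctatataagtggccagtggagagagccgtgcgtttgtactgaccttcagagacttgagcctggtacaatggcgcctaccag
Ldhb: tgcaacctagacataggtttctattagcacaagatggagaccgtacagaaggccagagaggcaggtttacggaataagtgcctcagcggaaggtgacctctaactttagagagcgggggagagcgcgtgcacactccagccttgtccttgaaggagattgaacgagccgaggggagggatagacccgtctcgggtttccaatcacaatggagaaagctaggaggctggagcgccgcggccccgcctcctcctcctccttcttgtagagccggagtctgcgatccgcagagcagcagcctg
Of the 34 members 33 were in the promoter table, and 20 of their 47 promoters (42.55%) held a match, against 6447 of 32851 promoters in all (19.62%). Several promoters belong to 1 gene, and a match is only a string of letters in this window.

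In the oxidative branch of the pentose phosphate pathway, G6pdx and Pgd, the 2 dehydrogenases that make NADPH, rose in both populations. G6pdx had 71.2, 83.7, 61.5 and 95.8 CPM in host control and 104, 106, 101 and 119 CPM in host LPS libraries, and 91.1, 74.8, 75.4 and 98.3 CPM in engrafted control and 191, 133, 128 and 134 CPM in engrafted LPS libraries. Its rise was 0.80 ± 0.19 in engrafted (adjusted p = 0.00231) and 0.45 ± 0.17 in host cells (adjusted p = 0.0400), and the host call was lost without host LPS mouse 1 or 4 or host control mouse 5, 6 or 7 (adjusted p = 0.0586 to 0.160). DESeq2 did not call the host rise (adjusted p = 0.0547). Pgd rose by 0.65 ± 0.15 in host (adjusted p = 0.00117) and 0.64 ± 0.16 in engrafted cells (adjusted p = 0.00365). Pgls, the lactonase between them, ranged from 119 to 194 CPM over the 16 libraries and passed no test. None of these 3 genes was called between the populations with or without LPS.

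The non-oxidative branch exchanges carbon between sugar phosphates and feeds back into glycolysis. Tkt, transketolase, went from 81.5, 106, 136 and 163 to 185, 233, 184 and 175 CPM in host (0.66 ± 0.18, adjusted p = 0.00656) and from 61.4, 92.1, 98.9 and 98.3 to 193, 151, 154 and 259 CPM in engrafted cells (1.11 ± 0.21, adjusted p = 0.000351). It was called lower in engrafted cells without LPS (-0.52 ± 0.19, adjusted p = 0.0415), although the groups overlapped. That call was lost without engrafted control mouse 5 or 6 or host control mouse 7 or 8 (adjusted p = 0.0628 to 0.191), and the change was -0.34 without engrafted control mouse 5. It was also lost with DESeq2 (adjusted p = 0.0510) and with all 16 libraries in 1 fit (adjusted p = 0.104). Taldo1, transaldolase, rose in engrafted cells from 252, 279.9, 271 and 273 to 427, 376, 369 and 474 CPM (0.61 ± 0.17, adjusted p = 0.00801), while host libraries stayed between 295 and 413 CPM (0.05 ± 0.15, adjusted p = 0.817), and the difference of 0.55 ± 0.22 was not called (adjusted p = 0.159), except by DESeq2 (0.59, adjusted p = 0.0408).

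Rpia, the isomerase that makes ribose 5-phosphate, fell in both populations. It had 33.8, 59.1, 45.25 and 35.2 CPM in engrafted control and 14.3, 16.8, 24.3 and 8.73 CPM in engrafted LPS libraries (-1.33 ± 0.31, adjusted p = 0.00210). Host values were 34.1, 50.0, 39.7 and 42.3 CPM and then 23.7, 32.1, 24.9 and 29.3 CPM (-0.61 ± 0.21, adjusted p = 0.0247), a call lost without host LPS mouse 1 or 3 or host control mouse 6 (adjusted p = 0.0646 to 0.0916). The host call was also lost with DESeq2 (adjusted p = 0.117) and without the filter on low counts (adjusted p = 0.0524). Rpe, the epimerase of this branch, had 3 to 26 reads per library and passed no test.

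Around the pathway, Hif1a, the hypoxia-inducible transcription factor known to drive many glycolytic genes, rose by 1.56 ± 0.30 in engrafted cells (adjusted p = 0.000320) and 0.94 ± 0.26 in host microglia (adjusted p = 0.00702). Host values were 46.0, 52.9, 60.0 and 23.2 CPM without and 113, 117, 55.8 and 64.2 CPM with LPS, and engrafted values 44.0, 26.1, 55.3 and 31.5 CPM and then 171, 123, 108 and 46.6 CPM. The groups overlapped in each population. As for Pfkfb3, mice 1 and 2 lay above mice 3 and 4 in both.

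Pdk1, a kinase that shuts pyruvate dehydrogenase and is known as a HIF target, was lower in engrafted cells and fell after LPS in the host. It had 71.2, 66.4, 59.2 and 56.4 CPM in host control and 15.4, 12.2, 20.1 and 20.4 CPM in engrafted control libraries (-1.89 ± 0.23, adjusted p = 3.37e-07). LPS lowered it in host microglia to 21.4, 29.2, 33.3 and 34.9 CPM (-1.09 ± 0.20, adjusted p = 0.000141), while engrafted LPS libraries had 19.8, 9.61, 17.9 and 2.91 CPM (-0.27 ± 0.39, adjusted p = 0.621). The responses of the populations were not shown to differ (0.83 ± 0.42, adjusted p = 0.278). The gap after LPS was -1.06 ± 0.35 (adjusted p = 0.0439) and was lost when any library but engrafted LPS mouse 1 or host LPS mouse 1 was left out (adjusted p = 0.0518 to 0.143). DESeq2 did not call this gap (adjusted p = 0.0715). Pdha1, a catalytic subunit of pyruvate dehydrogenase, which commits pyruvate to the mitochondria, rose by 1.04 ± 0.27 in engrafted (adjusted p = 0.00500) and 0.92 ± 0.25 in host cells (adjusted p = 0.00490), from at most 26.0 CPM in controls to 29.7 to 57.6 CPM.

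A further 113 genes of sugar entry, glycogen, pyruvate import, other isozymes, ribose phosphate and the HIF pathway were read in the same fits. Without LPS 3 of 53 tested (5.66%) were higher and 13 (24.5%) lower in engrafted cells, against 13.6 and 13.7% of all genes, and after LPS 4 of 62 (6.45%) and 8 (12.9%), against 9.52 and 7.62%. In response to LPS 11 of 54 (20.4%) rose and 10 (18.5%) fell in engrafted cells and 12 of 59 (20.3%) rose and 14 (23.7%) fell in host microglia, shares near those of all genes (19.4 and 19.3%, and 19.2 and 20.5%). The response differed for 2 of 72 (2.78%), near the background of 2.97%.

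Slc2a5 (GLUT5), the fructose transporter and a known microglia gene, was at 569 to 634 CPM in host control against 15.6 to 37.9 CPM in engrafted control libraries (-4.48 ± 0.19, adjusted p = 9.30e-16), and LPS lowered it to 36.1 to 47.5 CPM in host (-3.86, adjusted p = 2.80e-13) and to at most 7.69 CPM in engrafted cells. Khk, which phosphorylates fructose, was also lower in engrafted cells, by -1.25 without and -1.53 with LPS, as were Mpi, which feeds mannose into the pathway (-1.58 and -0.85), and Gpd1, which makes glycerol phosphate (-2.65 and -2.13). Lower by over 2-fold in 1 of these comparisons were Mxi1 without LPS (-1.05) and, after it, Prps2, which makes phosphoribosyl pyrophosphate (-1.79), and Tfrc, the transferrin receptor (-1.70). Gpd1 without LPS and Prps2 after it passed the filter on low counts through the host libraries alone, so these differences are descriptions only.

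Other genes were higher in engrafted cells. Pgm2l1, of the phosphoglucomutase family, had 33.5 to 52.2 CPM in engrafted control and 6.23 to 20.8 CPM in host control libraries (2.00, adjusted p = 1.94e-05), and was 2.19 higher after LPS (adjusted p = 0.00105). Stbd1, a glycogen-binding protein, had 12 to 24 reads in engrafted control and 0 to 9 in host control libraries (2.81, adjusted p = 5.87e-05), and 0 or 1 read in every LPS library. Stbd1 without LPS and Pgm2l1 after it passed the filter on low counts through the engrafted libraries alone, so these differences are descriptions only. Plin2, a lipid droplet protein, was higher by 1.17 without and 2.84 with LPS, and after LPS so were Ankrd37 (2.33) and Gpd2, the mitochondrial glycerol phosphate dehydrogenase (1.56). Ankrd37, too, entered that test through the engrafted libraries alone.

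After LPS, Tigar, a phosphatase that lowers fructose 2,6-bisphosphate, rose by 1.37 in engrafted and 1.26 in host cells, while Prpsap2, which binds the enzymes that make phosphoribosyl pyrophosphate, fell, with changes of -1.32 and -1.72. In engrafted cells Tigar passed the filter on low counts through the LPS libraries alone. Changes over 2-fold were called in engrafted cells for Pgam5 (1.44), Gpd2 (1.40), the cytokine Mif (1.32), Gyg (1.04) and Pgm2l1 (-1.05), and in host cells for Tfrc (2.21), Prps1 (1.31), Gbe1 (1.04), Slc2a8 (-1.29), Mpi (-1.35) and the enolase Eno3 (-1.79). Whether these differed between the populations is given by the interaction alone, which called none of them.

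The 2 genes of this list whose response differed were Plin2 (1.68, adjusted p = 0.00177) and Ankrd37 (2.58, adjusted p = 0.0424), the latter with 5 to 18 reads in engrafted LPS and 0 to 9 in all other libraries. Ankrd37 passed the filter on low counts through the engrafted LPS libraries alone, so its difference is a description only. Plin2 went from 29.7 to 41.9 CPM in engrafted control to 286 to 469 CPM in engrafted LPS libraries, and from 14.0 to 25.2 to 37.0 to 65.6 CPM in host cells. Ddit4, an inhibitor of mTOR signalling, rose by 4.01 in engrafted and 3.01 in host cells, and P4ha1, a collagen hydroxylase, fell in both, with changes of -1.30 and -0.88. Of the 10 hypoxia-induced genes tested in engrafted cells, 3 rose and 1 fell, and of the 11 tested in host microglia 4 rose and 2 fell, where 19.4 and 19.3% of all genes rose and fell in engrafted and 19.2 and 20.5% in host cells, so that, with 10 or 11 genes, these counts lie near that background. In the HIF pathway list, Egln2, an oxygen-sensing hydroxylase, rose by 1.65 in engrafted and 1.75 in host cells. Hif3a went from at most 3 reads in any control library to 15.4 to 31.8 CPM in engrafted and 12.6 to 61.0 CPM in host LPS libraries.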

How the data were processed

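RNA from 16 libraries of sorted brain macrophages was analysed. The deposited values are raw read counts per gene. The authors had made the libraries by a derivation of MARS-seq, which reads polyadenylated RNA at its 3′ end, mapped reads to mm9 (HISAT 0.1.5 and HOMER in the submitters' processing notes) and counted unique reads on the exons of 1 RefSeq model per gene, on the sense strand. No removal of PCR duplicates is named, so detection limits cover counting error only.

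Counts were tested with edgeR 4.0.16 (R 4.3.3). Its expression filter used a minimum count of 10 and a minimum total of 15, and libraries were scaled by TMM and fitted by quasi-likelihood on the 8 libraries of each comparison (all 16 for the interaction), and a gene was called at an adjusted p below 0.05 (Benjamini-Hochberg over all genes tested). Standard errors were derived from the F statistics. CPM used TMM over 16 libraries. Fits were tested on simulated data. Replicate libraries differed by 1.98 to 8.64 times counting noise (chi-square per degree of freedom, 24 pairs), so none was a copy. Both populations of a number came from the same mouse, and the correlation of their deviations from the group means was -0.03 to 0.19.

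The members and all gene lists were chosen with earlier results of these data known. All members are named, and other pathway genes where they passed the test at over 2-fold or a sentence turns on them. Alternatives were other size factors, DESeq2 1.42.0, other filters, 1 fit of all libraries, the mouse as a block, a 2-fold limit and leaving out each library.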

Additional observations from a re-analysis of the deposited data

Results flagged for a closer look

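The response to LPS differed between engrafted cells and host microglia, by the interaction term of edgeR, for 7 members. The difference (engrafted minus host, log2) was 1.95 for Slc16a3, 1.60 for Tpi1, 1.28 for Aldoa, 1.24 for Hk3, 1.20 for Pfkl, 1.15 for Pkm and 1.13 for Ldha. For Hk3 it stands for a smaller fall, and for the others for a larger rise, in engrafted cells.

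In 4 of 114 groups of 4 libraries, 1 library stood apart from the other 3, and chance flags about 1 in 20 such groups. Ldha was at 229 CPM in the host control library of mouse 8, with the others at 159 to 171 CPM, and Pgd at 225 CPM in the same library, with the others at 173 to 177 CPM. G6pdx was at 191 CPM in the engrafted library of LPS mouse 1, with the others at 128 to 134 CPM, and Pgd at 253 CPM in the host library of LPS mouse 2, with the others at 306 to 317 CPM.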

How the results depend on the processing

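No member that was called changed direction under any alternative run. Of the called members' values, 400 kept their side of the threshold and 16 lost it over the alternatives that keep all libraries, and 553 kept and 39 lost it when 1 library was left out. Without LPS, the 3 members higher in engrafted cells became 5 with all 16 libraries in 1 fit, where Slc2a3 and Pfkp were called too, and 1 when over 2-fold was asked as well, and the 8 lower members became 4 over 2-fold. Over all genes, 960 of 8847 were higher in that 1 fit, and of 8042 in the reported fit 503 were higher and 380 lower by over 2-fold. After LPS, the 2 lower members (Ldhb and Pdk1) became 1 with DESeq2, 1 with at least 10 reads in every library and 1 to 2 without single libraries. Over all genes, DESeq2 called 595 of 11485 lower, and the fit with at least 10 reads in every library 393 of 4975. For LPS in engrafted cells, the 5 members that fell became 2 over 2-fold and 3 to 5 without single libraries. Of all 7609 genes tested there, 861 fell by over 2-fold. For LPS in host microglia, the 12 that rose became 5 over 2-fold, where 631 of all 8238 genes tested rose by over 2-fold. No member differed downward in the interaction, and 0 to 1 did without single libraries. Calls were also gained by members that the reported fits did not call or did not test. Without LPS these were Taldo1 with library totals and Pfkp with DESeq2 or no filter on low counts, and for LPS in engrafted cells Pgk1, Gapdh and Pgam1 without that filter, Pgam1 also with DESeq2. After LPS DESeq2 added Ldha and Aldoa, other scalings, filters or fits Aldoa and Pfkfb3, and in the interaction DESeq2 added Taldo1. Leaving out single libraries added Slc2a3, Aldoa, Pfkfb3, Eno1 and, as a fall in the host, Hk2.

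With the mouse as a replicate block, 3 members were higher and 8 lower without LPS, 9 and 3 after it, and 7 and 0 differed in the interaction. Over all genes, the same counts were 1116 and 1104 of 8042, 833 and 665 of 7843, and 313 and 301 of 8847. The block added Aldoa and Pfkfb3 after LPS and changed no other call. Scaling by library totals in place of TMM moved the median of all genes by -0.15 (log2) in engrafted against host cells after LPS, and the share of higher calls from 55.5 to 40.2%, while 6 members stayed higher and 3 were lower. Of all 7843 genes tested, 599 were then higher and 890 lower. The engrafted library of LPS mouse 4, with 395283 reads, limits low-count members most, since 3 reads there are 8.73 CPM.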
